A study of Mus musculus with 21 samples.

Results

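The neutrophil specific granule programme was followed, by 10 of its genes, through the hematopoietic stem cell (HSC) samples of the study: S100a8, S100a9, Ltf, Lcn2, Ngp, Camp, Chil3, Cd177, Fcnb and Mmp8. They were taken by symbol, and all 10 of 10 were listed in both HSC tables, which together hold 13747 gene symbols. The genes were chosen by their levels in these HSC columns, being high in some active and transplant columns and low in sedentary ones, so their values in HSC are a description. Where the HSC fits count them among the genes called, the share of all genes called stands beside the count, and the count supports nothing. Only the mammary tumours, which the choice did not use, test these genes on other samples.

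All mice carried the MMTV-PyMT transgene, in which a mouse mammary tumour virus promoter drives the polyoma middle T oncogene mainly in mammary epithelium. HSC were sequenced from sedentary mice at week 12, from physically active mice at week 12, and at week 14 from sedentary mice that had received cells of an active mouse, with 3 libraries in each group. Tumours came from sedentary and physically active mice at weeks 12 and 18, again with 3 libraries in each group. The labels call the replicates biological but do not give the sorting gate, the number of mice behind a library, the transplanted cells or the recipients' remaining cells. Transplantation, the later week and the joining of an active donor with a sedentary host come together, so they cannot be told apart.

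Specific granules are the second set of storage granules that a maturing neutrophil fills. Primary granules with myeloperoxidase and elastase form first, at the promyelocyte stage. The iron-binding and antimicrobial proteins of the specific granules follow in myelocytes, under the transcription factor C/EBP epsilon, and gelatinase granules and cell surface receptors come last. Stem cells stand above this lineage and do not carry such granules. S100a8 and S100a9 are usually grouped with these genes, although their products are cytosolic.

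The active library numbered 6 in the labels could not be identified, and this touches nearly every result. Its reads stand in both HSC tables, headed P3 (6) in the table with sedentary HSC and P2 (6) in the table with transplant HSC, and the values are not the same. Between the tables the reads differed at 13086 of 13380 shared genes and at 10 of 10 granule genes, whereas each of the other active libraries differed at 4 genes and at 0 granule genes. At most 1 of these columns can be library 6. They are called the sedentary-table and the transplant-table column 6 below, are shown apart, and are never averaged with each other.

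HSC libraries held 16406889 to 72417315 recovered reads, and replicate 3 of each group was the deepest. Those replicates also have letters in their library names, so the values of replicates 1 and 2 alone stand beside each comparison. Tumour libraries held 20838963 to 28973775 reads. Of 12 HSC markers 11 were listed and none was at 0 in any HSC column (Hoxb5 was not analysed here). T cell and B cell markers were sparse, with 1 of 8 and 3 of 8 genes listed.

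The stretches just upstream of the genes are shown because the genes moved together and because C/EBP epsilon is the known regulator of this granule set. Sequences were taken from RefSeq on GRCm38.p6, which is the mm10 build, and matched all 10 genes. Within the 250 bases before the RefSeq start, both strands were searched for a C/EBP core (TTGCNNAA), a PU.1 core (GAGGAA) and a TATA box (TATAAA). These patterns can touch or overlap each other. Ltf, S100a9, Mmp8 and Chil3 are printed 5′ to 3′ on the strand of the gene, with matches in capitals. Ltf had the widest difference between transplant and sedentary HSC, and Mmp8 had the smallest. S100a9 was the highest per length in transplant HSC. Chil3, like Camp, holds none of the 3 patterns.
Ltf: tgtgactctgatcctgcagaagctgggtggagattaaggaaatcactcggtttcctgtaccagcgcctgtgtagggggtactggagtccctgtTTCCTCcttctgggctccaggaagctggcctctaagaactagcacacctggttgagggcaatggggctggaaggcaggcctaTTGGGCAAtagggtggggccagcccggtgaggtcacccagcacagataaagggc
S100a9: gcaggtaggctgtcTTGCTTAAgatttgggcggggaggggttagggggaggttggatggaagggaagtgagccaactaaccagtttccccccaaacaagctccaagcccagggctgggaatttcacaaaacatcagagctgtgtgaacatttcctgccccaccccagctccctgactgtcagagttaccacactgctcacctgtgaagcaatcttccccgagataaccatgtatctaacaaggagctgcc
Mmp8: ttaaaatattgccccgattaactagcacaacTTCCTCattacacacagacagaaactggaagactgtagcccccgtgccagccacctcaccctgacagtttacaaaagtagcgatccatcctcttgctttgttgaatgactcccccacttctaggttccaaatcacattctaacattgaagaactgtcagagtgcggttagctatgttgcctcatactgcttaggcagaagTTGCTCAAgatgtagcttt
Chil3: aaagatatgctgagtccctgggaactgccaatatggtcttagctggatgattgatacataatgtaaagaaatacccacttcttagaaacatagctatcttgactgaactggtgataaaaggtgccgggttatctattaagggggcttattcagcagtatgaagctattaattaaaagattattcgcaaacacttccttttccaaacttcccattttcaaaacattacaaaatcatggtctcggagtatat

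The Ltf stretch lies at chr9:111019042-111019270 on the plus strand and ends where the GENCODE gene begins. S100a9 is at chr3:90695722-90695971 on the minus strand, Mmp8 at chr9:7558179-7558428 on the plus strand and Chil3 at chr3:106167565-106167814 on the minus strand. The C/EBP core was found before the RefSeq start of 6 of 10 granule genes, S100a9, Ltf, Lcn2, Ngp, Fcnb and Mmp8, against 9.56% of 32851 promoters. Ngp and Fcnb held it at 2 places each, and in Mmp8 it began 19 bases before the start. The PU.1 core was found in 5 of 10, against 23.3% of promoters, and the TATA box in 2 of 10, S100a8 and Cd177, against 12.4%. Some counted matches lie inside the GENCODE gene, which can begin before the RefSeq start. These include both Lcn2 matches, the Ngp match 11 bases before the start and the S100a8 TATA box. Such matches describe letters and are not binding sites. Whether the matches go with the size of the change was not tested.

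Some of these genes share a chromosome, and S100a8 and S100a9 are close to each other. S100a8 (chr3:90668978-90670035) and S100a9 (chr3:90692632-90695721) lie 22.6 kb apart. Camp, Ngp and Ltf lie in that order on chromosome 9, with gaps of 570.1 and 596.3 kb, and the genes in those gaps were not looked at. Chil3 has a near-identical neighbour in its chitinase-like gene family, so the authors' counting may have split or shared reads between copies and its values are less certain.

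The granule genes were low in sedentary HSC, high in transplant HSC, and ran from low to highest among the active columns. To set all columns side by side, reads recovered from both tables were put on 1 common scale, and the levels below are normalized counts on that scale. The tables had been normalized apart by the authors, so levels across them rest on this rescaling. The 10 genes took 0.00958%, 0.0116% and 0.0123% of all reads in the sedentary libraries and 0.128%, 0.122% and 0.135% in the transplant libraries. In active replicates 1 and 3 the share was 0.0581% and 0.0163%. In the sedentary-table column 6 it was 0.494% (95% Wilson interval 0.491% to 0.497%), and in the transplant-table column 6 it was 0.0122% (0.0118% to 0.0127%). The transplant-table column 6 therefore lay inside the sedentary range, and the sedentary-table column 6 above every other column. These are bulk samples, in which fewer cells of a type and less RNA per cell cannot be told apart.

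S100a8 and S100a9 encode the calcium-binding partners of calprotectin, an abundant protein pair of the neutrophil cytosol. S100a8 measured 311, 513 and 291 in the sedentary libraries, 2587 in active replicate 1, 503 in active replicate 3, and 6514, 5413 and 7177 in the transplant libraries. In the sedentary-table column 6 it measured 20856, and in the transplant-table column 6 it measured 496. The 3 transplant libraries lay above every sedentary and active value except the sedentary-table column 6, which lay above them. S100a9 measured 229, 393 and 199 in sedentary HSC, 2675 and 414 in active replicates 1 and 3, 32861 and 452 in the sedentary-table and the transplant-table column 6, and 7378, 5613 and 8417 in transplant HSC. Its order was that of S100a8 at the top, and across the 10 columns the log2 levels of this pair had a Pearson r of 0.999.

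Ltf encodes lactoferrin, which binds iron and is a defining protein of specific granules. It was the most variable of the genes in sedentary HSC, at 3.27, 118 and 35.0, of which the lowest was only 2 reads. Active replicates 1 and 3 held 1108 and 57.0, the sedentary-table and the transplant-table column 6 held 23300 and 116, and the transplant libraries held 2454, 3146 and 2687. Active replicate 3 and the transplant-table column 6 thus lay within the sedentary range, and the sedentary-table column 6 was 201 times the transplant-table one. Lcn2, lipocalin 2, withholds iron from bacteria by binding their siderophores. It measured 309, 234 and 350.3 in sedentary HSC, 1042 and 535 in active replicates 1 and 3, 4659 and 251 in the sedentary-table and the transplant-table column 6, and 2522, 2048 and 2244 in transplant HSC. Lcn2 had the tightest sedentary values, the highest being 1.49 times the lowest, against 36.1 times for Ltf.

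Ngp, the neutrophilic granule protein, and Camp, the cathelicidin precursor of an antimicrobial peptide, share a cystatin-like domain. Ngp measured 83.4, 296 and 179 in sedentary HSC, 2222 and 447 in active replicates 1 and 3, 33048 and 334 in the sedentary-table and the transplant-table column 6, and 5651, 5022 and 5193 in transplant HSC. The transplant values of Ngp were the closest to each other of all 10 genes, the highest being 1.13 times the lowest. Camp was low throughout, with 3.27 to 15.9 in sedentary HSC, 92.0 and 13.2 in active replicates 1 and 3, 1366 and 13.5 in the sedentary-table and the transplant-table column 6, and 124 to 269 in transplant HSC. Its 3 sedentary libraries held 2, 9 and 17 reads, and its transplant values spread by 2.17 times, the widest of the genes there.

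Chil3 encodes Ym1, a chitinase-like lectin, and Fcnb encodes ficolin B, a lectin that recognises microbial sugars. Chil3 ran from 96.5 to 236 in sedentary and from 4825 to 5778 in transplant HSC, with 1624 and 356 in active replicates 1 and 3 and 17298 and 295 in the sedentary-table and the transplant-table column 6. Fcnb ran from 21.3 to 51.1 in sedentary and from 579 to 760.0 in transplant HSC, with 339 and 76.0 in active replicates 1 and 3 and 1232 and 36.4 in the sedentary-table and the transplant-table column 6. Neither gene overlapped between sedentary and transplant HSC. Cd177, a surface glycoprotein stored in specific granules, measured 22.9, 52.9 and 75.5 in sedentary HSC, 281 and 102 in active replicates 1 and 3, 4692 and 111 in the sedentary-table and the transplant-table column 6, and 1236, 1730.3 and 954 in transplant HSC. For Cd177 the transplant mean was 4.65 times active replicate 1, the widest such gap among the genes.

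Mmp8, the neutrophil collagenase, behaved differently. It was already at 1776, 1446 and 2163 in sedentary HSC, and measured 5058 and 2304 in active replicates 1 and 3. The transplant libraries held 5404, 6887 and 6452, above the sedentary-table column 6 at 5123 and the transplant-table one at 1441. Mmp8 was the only one of the 10 genes for which the sedentary-table column 6 was not the highest column, and its range over all columns was the narrowest.

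**Figure D1:**
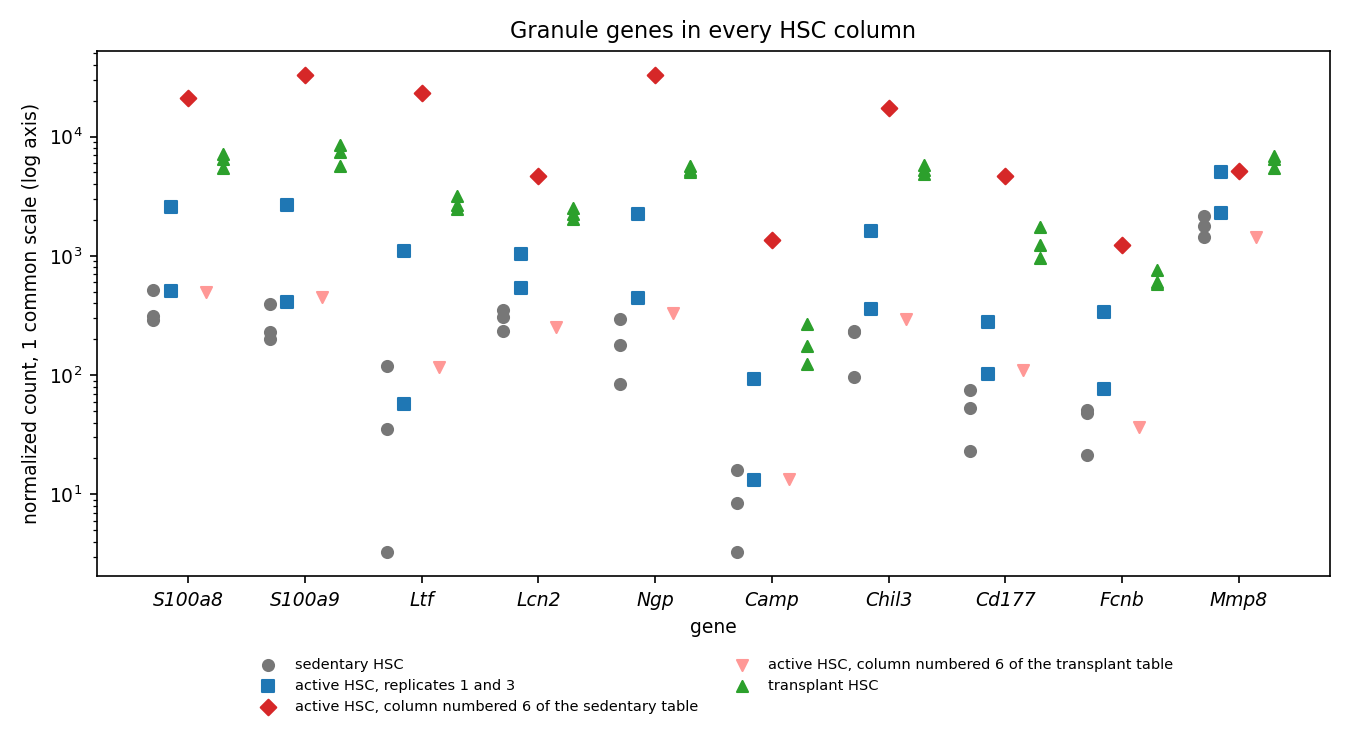
Normalized count of each granule gene (x axis) in every HSC column on a log y axis, on 1 common scale over both tables, with 1 point per column and the columns numbered 6 drawn apart. For every gene the 3 transplant points lie above the 3 sedentary points, and for every gene but Mmp8 the sedentary-table column 6 is the highest point.

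The same order of columns recurred across the genes. For 9 of 10 the sedentary-table column 6 came first, the 3 transplant libraries followed, and active replicate 1 came next, while for Mmp8 the transplant libraries came first. Active replicate 1 exceeded every sedentary library for 10 of 10 genes. Active replicate 3 exceeded them for 7 of 10, with S100a8, Ltf and Camp inside the sedentary range. The transplant-table column 6 exceeded them for 4 of 10 (S100a9, Ngp, Chil3 and Cd177), lay inside the range for 5 and fell below it for Mmp8. Among the 3 transplant libraries and among the lower columns the order changed from gene to gene.

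As multiples of the sedentary mean, the median over the 10 genes was 21.0, 23.1 and 19.1 in the 3 transplant libraries. It was 8.56 in active replicate 1, where the genes ran from 2.82 for Mmp8 to 21.2 for Ltf, and 1.65 in active replicate 3, where they ran from 1.09 for Ltf to 2.40 for Ngp. In the sedentary-table column 6 the median was 92.6, from 2.85 for Mmp8 to 447 for Ltf. In the transplant-table column 6 it was 1.52, from 0.803 for Mmp8 to 2.22 for Ltf. In the transplant means and in active replicate 1 alike, Mmp8 and Lcn2 had the lowest folds and Ltf the highest.

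**Figure D2:**
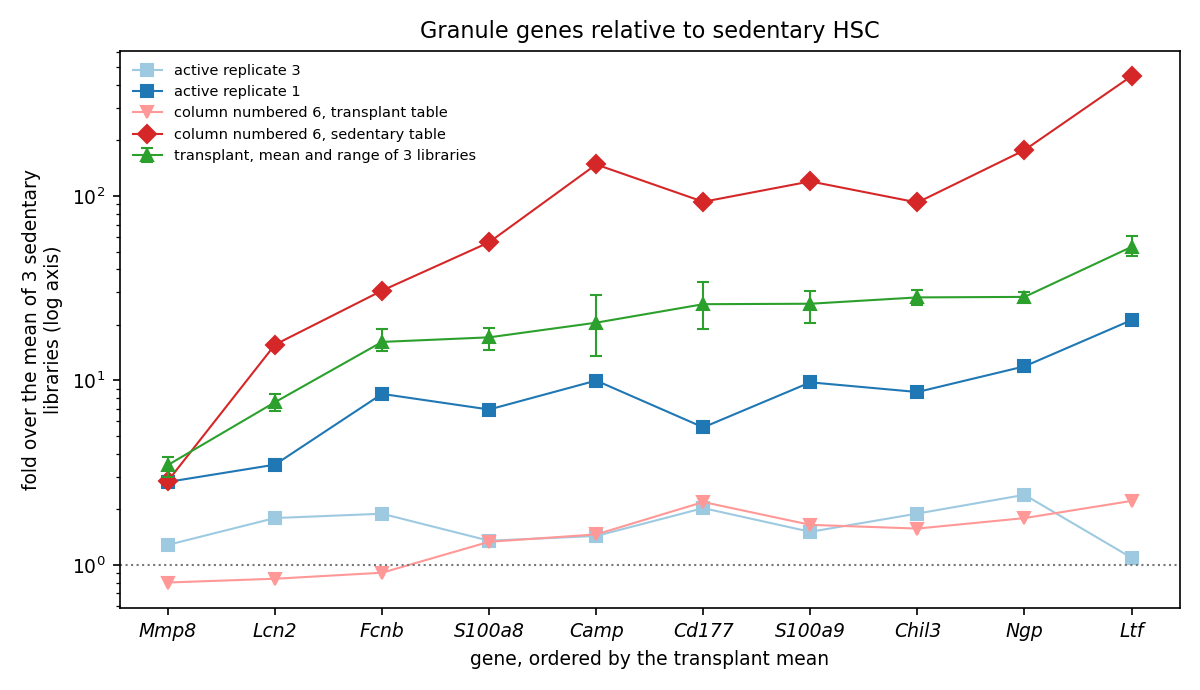
Fold of each granule gene over the mean of the 3 sedentary libraries, on a log y axis, with genes on the x axis ordered by the transplant mean and bars giving the range of the 3 transplant libraries. Mmp8 and Lcn2 sit lowest and Ltf highest in transplant HSC, and active replicate 3 and the transplant-table column 6 stay between 0.803 and 2.40.

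The makeup of the granule reads changed along with their total. Mmp8 alone took 62.2%, 43.1% and 60.4% of the reads of the 10 genes in the sedentary libraries. In transplant HSC its share was 14.5%, 19.4% and 16.2%, in active replicate 1 it was 29.7%, and in the sedentary-table column 6 it was 3.55%. The S100a9 share moved the other way, from 5.57% to 11.7% in sedentary HSC to 22.8% in the sedentary-table column 6. Divided by gene length, Mmp8 was the highest of the 10 in sedentary HSC with a level of 740.2 ± 148 normalized counts per kb (SD, n = 3), followed by S100a8 at 536 ± 177 and S100a9 at 525 (382 to 753). These 3 overlapped in their spread. In transplant HSC S100a9 came first at 13671 ± 2715 per kb, then S100a8 at 9176 ± 1284 and Ngp at 4328 ± 266, and Mmp8 held rank 5 at 2576 ± 314. Camp had the lowest mean per kb in both groups, at 4.31 to 20.9 in sedentary and 164 to 355 in transplant HSC. In sedentary HSC its range overlapped those of Ltf (0.948 to 34.2), Cd177 (8.06 to 26.6) and Fcnb (15.9 to 38.2). In transplant HSC it overlapped that of Cd177 (336 to 609).

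The genes rose and fell together over the columns, as their choice would lead to. Over 10 HSC columns the Pearson r of log2 levels between pairs of the genes had a median of 0.969 (45 pairs, 0.827 to 0.999). Without the columns numbered 6, over 8 columns, the median was 0.967. Mmp8 stood furthest from the rest, with an r of 0.888 to the mean of the others, against 0.963 or more for each other gene. Without the columns numbered 6 that gap all but closed, with 0.951 for Mmp8 and 0.958 for Lcn2, the next lowest. The columns share libraries' depth and the group differences, so these values only describe the set.

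The comparison of transplant with sedentary HSC contains no column numbered 6. All 10 granule genes were higher in transplant HSC, by a median log2 fold change of 4.55, while the median over all 13329 genes tested was close to 0. Ltf differed most, with a log2 fold change of 6.70 ± 1.17 (SE) from means of 51.7 ± 58.9 and 2741 ± 348 normalized counts (SD, n = 3 each). Ngp differed by 4.997 ± 0.450, Chil3 by 4.92 ± 0.37, Cd177 by 4.78 ± 0.47, S100a9 by 4.74 ± 0.30 and Camp by 4.36 ± 0.55. S100a8 differed by 4.13 ± 0.25, Fcnb by 4.07 ± 0.35, Lcn2 by 2.94 ± 0.18 and Mmp8 by 1.81 ± 0.19. Groups did not overlap for 10 of 10, against 20.3% of all genes higher without overlap. By limma with Benjamini-Hochberg adjustment, 10 of 10 passed the threshold of 0.05, against 7.94% of all genes called higher. The rule used this contrast, so these counts are no support for it. Without transplant replicate 1, 2 or 3 the count that passed was 9, 8 and 9 of 10, against 2.5%, 1.3% and 7.87% of all genes called higher. In replicates 1 and 2 alone the median was 4.43 and 8 of 10 passed, against 10.4% of all genes, and without sedentary replicate 1, which held 2 Ltf reads, Ltf differed by 5.39.

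Other steps of the neutrophil programme were read from lists that, like the granule genes, were drawn up with earlier results known. The lists of other cells and of HSC markers below were drawn up in the same way. Their calls and p-values in HSC are therefore a description and no independent support. Of the primary granule genes 5 of 6 passed the test upwards in transplant against sedentary HSC, with a list median of 1.47. Mpo, myeloperoxidase, rose by 1.65 ± 0.19 (limma, adjusted p = 0.0113), Ctsg, cathepsin G, by 1.44 ± 0.18 (limma, adjusted p = 0.0127) and Elane, neutrophil elastase, by 2.65 ± 0.34 (limma, adjusted p = 0.0147). These genes were high in every HSC column, Mpo at 52329 to 75940.0 in sedentary and 182690.0 to 240610.0 in transplant libraries. Of the other specific granule genes 9 of 9 were higher and 8 passed, with a list median of 2.64. Itgb2l, an integrin beta-like gene, rose by 4.55 ± 0.33 (limma, adjusted p = 0.00516), Pglyrp1, a peptidoglycan recognition protein, by 2.64 ± 0.19 (limma, adjusted p = 0.00516) and Mcemp1 by 2.84 ± 0.31 (limma, adjusted p = 0.0106). Of gelatinase granule and oxidase genes 10 of 10 were higher and 8 passed, with a list median of 1.57. Itgb2, the beta chain of the leukocyte integrins, rose by 1.58 ± 0.13 (limma, adjusted p = 0.0074). Over all genes tested, 7.94% were called higher and 3.71% lower.

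Late neutrophil genes were a mixed list. Of 11 tested 11 were higher in transplant HSC and 5 passed. Il1r2, the decoy interleukin 1 receptor, rose by 4.04 ± 0.46 (limma, adjusted p = 0.0112) and Fpr2, a formyl peptide receptor, by 3.93 ± 0.64 (limma, adjusted p = 0.0216). Retnlg (limma, adjusted p = 0.0277), Fpr1 and Il1b also passed. The list median was 0.78, and Csf3r, the receptor of the growth factor G-CSF, had a log2 fold change of 0.11 ± 0.20 and did not pass. Retnlg stayed at 1.63 to 7.35 normalized counts in transplant and at 0 in all sedentary libraries, and Mmp9, the gelatinase itself, was at 0.409 to 8.47 and did not pass. Both were highest in the sedentary-table column 6, Retnlg at 55.0 and Mmp9 at 109.

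Of 7 transcription factors of granulocyte development 7 were higher and 4 passed. Cebpe, which encodes C/EBP epsilon, measured 211, 164 and 373 in sedentary HSC and 3139, 2267 and 1587 in transplant HSC. Its rise was 3.25 ± 0.38 (limma, adjusted p = 0.012). In active replicates 1 and 3 it stood at 970.1 and 516, in the sedentary-table column 6 at 3153 and in the transplant-table column 6 at 275, the same high and low columns as for the granule genes. Gfi1, a repressor needed for granulocyte fate, rose by 1.52 ± 0.17 (limma, adjusted p = 0.0106) and Cebpd by 0.76 ± 0.12 (limma, adjusted p = 0.0203). Cebpa passed as well. Spi1, Runx1 and Cebpb did not pass.

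Markers of other cells moved as well, though the order of the active columns differed between lists. All 8 megakaryocyte and platelet genes rose, with a median of 3.44, and Ppbp, a platelet chemokine, had the smallest p, with a rise of 4.77 ± 0.46 (limma, adjusted p = 0.00908). Their summed level was 2145 to 3869 in sedentary and 9145 to 26744 in transplant HSC. It was 4965 and 5651 in active replicates 1 and 3, and 27564 and 3028 in the sedentary-table and the transplant-table column 6. Of 9 monocyte genes 7 were higher and 4 passed upwards, and 1 passed downwards. Ly6c2 rose by 3.16 ± 0.32 (limma, adjusted p = 0.0091). Irf8, a monocyte and dendritic cell factor, fell by 1.48 ± 0.15 on the log2 scale (limma, adjusted p = 0.00917). The monocyte sum ran from 22567 to 25687 in sedentary and from 35001 to 38494 in transplant HSC. In active replicate 1 it was 43027, above all transplant libraries, and in active replicate 3 it was 23698. The sedentary-table and the transplant-table column 6 held 45599 and 19117. Of 6 mast cell and basophil genes 6 were higher and 3 passed, with sums of 1426 to 3054 in sedentary and 4647 to 8641 in transplant HSC. Active replicates 1 and 3 held 3336 and 3018, the latter inside the sedentary range. Mcpt8, a basophil protease, rose by 0.99 ± 0.14 (limma, adjusted p = 0.0158), Prss34 by 1.76 ± 0.28 and Fcer1a, a chain of the IgE receptor, by 2.51 ± 0.50. None of 7 erythroid genes passed, none of 3 B cell genes passed, and Lck, the only T cell gene listed, fell by 1.34 ± 0.27 on the log2 scale (limma, adjusted p = 0.0352).

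The HSC marker sum was lower in transplant HSC. Cd34, an abundant gene, carried the difference in the sum, although other markers also fell. The 11 genes summed to 24956 to 28026 in sedentary HSC, 15477 to 18102 in transplant HSC, 17568 and 25954 in active replicates 1 and 3, and 17699 and 27618 in the sedentary-table and the transplant-table column 6. Of 11 tested 3 passed downwards. Hlf fell by 1.13 ± 0.14 on the log2 scale (limma, adjusted p = 0.0137). Cd34 fell by 1.24 ± 0.18 (limma, adjusted p = 0.0165) and Mecom by 1.23 ± 0.26 (limma, adjusted p = 0.0396). Slamf1, the CD150 marker used to sort stem cells, rose by 1.72 ± 0.39 (limma, adjusted p = 0.0472). Cd34 made up 57.3% to 64.8% of the sum in sedentary and 38.3% to 46.4% in transplant HSC. A split without Cd34 was made after its values were seen. The other 10 markers then summed to 9619 to 10668 in sedentary and 9542 to 10285 in transplant HSC, which overlapped. They summed to 10096 in the sedentary-table column 6 and 8595 in active replicate 1. Much of that sum was Kit, at 5111 to 6433 in sedentary and 5691 to 6959 in transplant HSC. The overlap therefore says little about the less abundant markers. Of these, Fgd5 differed by -1.97 ± 0.65 and Meis1 by -0.54 ± 0.22 on the log2 scale, and neither passed. Over the list 4 of 11 were higher, and the median was -0.54. The part of other cells, or of the sort, in the granule gene levels was not tested.

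**Figure D3:**
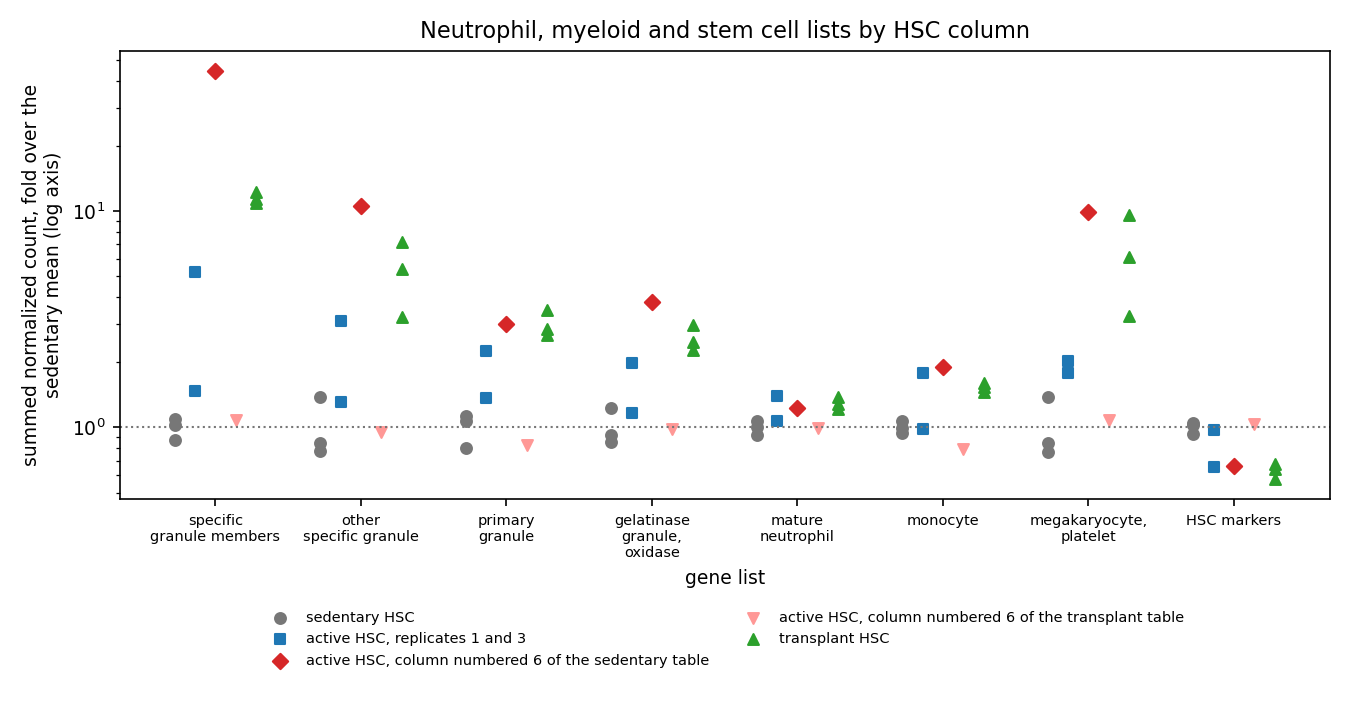
Summed normalized count of each gene list (x axis) in every HSC column, as a fold over the sedentary mean on a log y axis, with 1 point per column and a dotted line at 1. The 10 granule genes stand highest in the sedentary-table column 6 and in transplant HSC, the megakaryocyte list also rises there, and the HSC marker sum, much of it Cd34, lies below 1 in those columns and in active replicate 1.

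For active against sedentary HSC the answer depended on which column 6 was used. With the sedentary-table column, 10 of 10 granule genes had a log2 fold change above 0, against 50.5% of all genes, with a median of 3.55 and a range from 1.14 ± 0.37 (SE) for Mmp8 to 5.43 ± 2.39 for Ltf. S100a8 measured 338 ± 113 normalized counts in sedentary and 7280.1 ± 10218 in active HSC (SD, n = 3 each), a spread as wide as the mean. Active values lay above all sedentary values for 7 of 10 genes, against 10.4% of all genes, the exceptions being S100a8, Ltf and Camp. By limma 0 of 13513 genes passed (1252 had an unadjusted p under 0.05), edgeR also called 0, and DESeq2 called 274, with 1.95% of genes higher and 9 of 10 granule genes among them. The authors' deposited table put 223 genes (1.65%) below an adjusted p of 0.05, with 1 of 10 granule genes, Mmp8, among them. With the transplant-table column the median was 1.60, groups did not overlap for 4 of 10 genes, S100a9, Ngp, Chil3 and Cd177, against 3.17% of all genes, and limma again called 0 (357 had an unadjusted p under 0.05). Without either column the median over active replicates 1 and 3 was 2.02, and in replicates 1 and 2 alone, which kept the sedentary-table column, it was 4.98.

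For transplant against active HSC the column 6 also set the size. With the transplant-table column, 10 of 10 granule genes were higher in transplant HSC without overlap, against 13.1% of all genes, with a median log2 fold change of 2.90. Ltf differed by 3.81 ± 1.08 (SE), S100a9 by 3.14 ± 0.75, Cd177 by 3.09 ± 0.45 and Mmp8 by 1.27 ± 0.46. S100a8 measured 1188 ± 1195 in active and 6324 ± 882 in transplant HSC (SD, n = 3 each). Of 13633 genes tested, limma called 7 (0.0513%), and 0 of the granule genes were among them. Libraries of the same replicate number passed a rule of 0.1 for correlated deviations, although the labels name no pairs. Active replicate 2 was here the transplant-table column 6, and replicate 3 the deepest of each group, so a true pairing was not established. With the replicate number as a block limma called 0. Active replicate 1 weighed heavily: without it limma called 79 genes, with 8 of 10 granule genes among them and 0.426% of all genes called higher. DESeq2 called 1134 genes, with 5.57% higher and 5 of 10 granule genes among them. The authors' deposited table put 1080 genes (7.92%) below an adjusted p of 0.05, with 5 of 10 granule genes among them. In replicates 1 and 2 alone the median was 2.47.

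With the sedentary-table column in its place, the median for transplant against active was 1.05 and groups did not overlap for only 1 of 10 genes, Mmp8, against 2.68% of all genes. The mean log2 level was then higher in transplant HSC for 10 of 10 genes, but the ratio of the group means was below 1 for 7 of 10, down to 0.341 for Ltf, so the direction depends on the scale of averaging. Limma called 1 of 13380 genes (0.00747%) in that fit, and 0 granule genes. Both comparisons with active HSC share active replicates 1 and 3, and the values stand side by side for that reason only.

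In the mammary tumours, which had no part in choosing the genes, 7 of the 10 were listed, and Ngp, Camp and Fcnb were not analysed here. Lcn2 and Ltf are also made by mammary epithelium, and their levels there were in another range: 15321 to 110970.0 and 3432 to 58902 normalized counts over the 12 tumours. S100a8 ran from 11.5 to 197, Cd177 from 13.4 to 165, and S100a9, Chil3 and Mmp8 from 0 to at most 30.6. Tumour and HSC tables were normalized apart, so no level is compared between them.

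At week 12 none of the 7 genes passed the test between active and sedentary tumours. S100a8 measured 14.4, 46.4 and 50.5 in sedentary and 28.2, 43.3 and 37.9 in active tumours, a log2 difference of 0.14 ± 0.52 (SE). Ltf measured 58902, 17777 and 20317 in sedentary and 24181, 12330.0 and 6311 in active tumours, a log2 difference of -1.17 ± 0.68. Groups overlapped for 7 of 7, where 4.36% of all genes were higher without overlap. By limma 99 of 19162 genes passed (0.517%), and the adjusted p of the granule genes ran from 0.97 to 0.984. Active was above sedentary in the mean log2 level for 4 of 7 genes, against 51.7% of all genes.

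At week 18 the 4 genes S100a8, S100a9, Cd177 and Mmp8 were higher in every active tumour than in every sedentary tumour, without passing the test. S100a8 measured 11.5, 45.5 and 46.6 in sedentary and 79.1, 90.0 and 197 in active tumours. Its log2 difference was 1.90 ± 0.66 (SE; limma, adjusted p = 0.824). S100a9 measured 3.83, 5.06 and 0 in sedentary and 26.0, 11.4 and 11.6 in active tumours, a log2 difference of 2.39 ± 0.78. Cd177 measured 23.9, 21.2 and 49.6 in sedentary and 71.8, 67.3 and 104 in active tumours, a log2 difference of 1.41 ± 0.38 (limma, adjusted p = 0.815). Mmp8 measured 0, 3.04 and 1.98 in sedentary and 30.2, 6.12 and 5.35 in active tumours, a log2 difference of 2.29 ± 0.83. S100a9 and Mmp8 were at a few reads per library, so their differences rest on small counts.

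No overlap with active higher was seen for 4 of 7 granule genes, against 6.03% of all genes. Of the other neutrophil lists, it was seen for 1 of 8 other specific granule and 2 of 11 mature neutrophil genes. It was seen for 0 of 10 gelatinase granule and oxidase genes and 0 of 2 primary granule genes. By limma 0 of 18939 genes passed at week 18 (1131 had an unadjusted p under 0.05), edgeR called 0 and DESeq2 called 52, with 0 granule genes among them. The adjusted p of the 7 genes ran from 0.815 to 0.961, and 4 of 7 had an unadjusted p under 0.05, the smallest being 0.0116. Ltf had a log2 difference of -0.26 ± 1.00 and Lcn2 one of 0.48 ± 0.50. The difference between the week 18 and week 12 effects was tested over all 12 tumours, and none of the 7 genes passed (limma, adjusted p of 0.77 or more). It was largest for Cd177, at 2.13 ± 1.02 on the log2 scale. In the authors' deposited tables of tumours, 0 of the 7 genes had an adjusted p under 0.05 at either week.

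**Figure D4:**
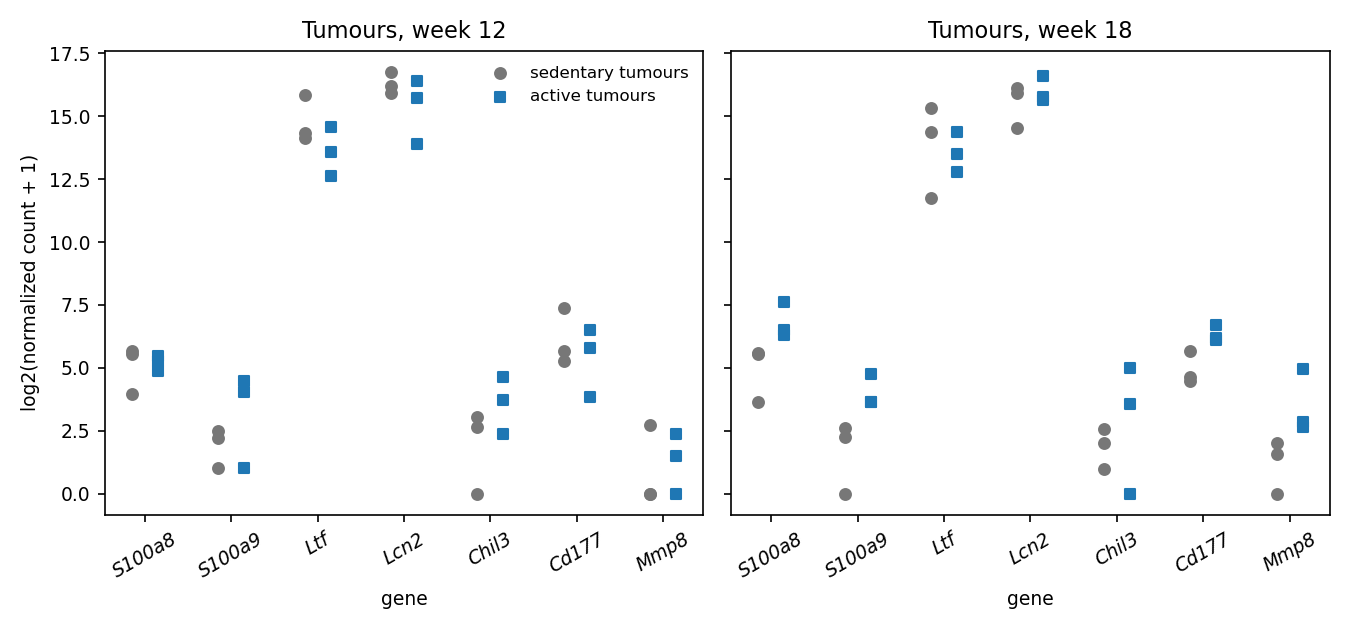
Level of the 7 granule genes listed in tumours, as log2(normalized count + 1), with 1 point per tumour and sedentary and active tumours at week 12 (left) and week 18 (right). At week 18 the active points of S100a8, S100a9, Cd177 and Mmp8 lie above all sedentary points, and at week 12 the groups overlap for all 7 genes.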

How the data were processed

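RNA was sequenced from sorted HSC (micro-scale column kit) and mammary tumours (TRIzol) with a stranded mRNA kit, per the labels' protocols. The genome build is mm10, per the submitters' processing notes, and the aligner and counter were not given in the sources used here. The authors deposited 4 tables, each with a normalized signal per gene and library, a log2 fold change and an adjusted p-value. Per the deposited values, the signal is a gene count over a size factor, 1 per column, and turning it back gave whole numbers of reads in 100% of cases (within 0.05). The adjusted p-value of the authors is used only for counts of genes under 0.05.

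The granule genes and gene lists were chosen with earlier results of these data known. All granule genes were named, and of each other list up to 3 genes past the threshold by smallest p. The 10 genes most like the granule genes were those with the highest correlation to their mean, among genes averaging at least 50.

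In R 4.3.3, limma 3.58.1 was run on log2(value + 1) for genes averaging 1 or more in either arm, with Benjamini-Hochberg adjustment over all genes tested and a threshold of 0.05. Fold changes are on that scale, which understates those of low genes. Transplant and sedentary HSC stand in different tables, so their recovered reads were joined by symbol and scaled by the median of ratios, and so were the 10 HSC columns for the levels. Recovered reads were also tested with edgeR 4.0.16 and DESeq2 1.42.0. Other alternatives were pseudocounts of 0.1 and 10, no filter, a minimum mean of 10, TMM scaling, each library left out, replicates 1 and 2 alone, the other column numbered 6, and the replicate number as a block. The procedure was also run on simulated data that held no outlying column, so that run does not cover the columns numbered 6. Deviations of libraries with the same number had correlations across genes of 0.105, 0.116 and 0.318 in transplant against active HSC and of 0.164, 0.159 and 0.139 in week 18 tumours. Both comparisons thus passed a rule of 0.1 for every pair. The labels name no pairs, and whether shared depth gave these correlations was not tested. Intervals of read shares cover counting error only, since the reads carried no molecular identifiers. The p-values measure the spread between the labelled replicates. Python 3.11.15 with pandas 2.3.3 and scipy 1.17.1 gave levels, intervals and motif counts.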

Additional observations from a re-analysis of the deposited data

How the results depend on the processing

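The log2 fold changes of the granule genes in HSC stayed above 0 under all alternatives. That was 160 of 160 values for active against sedentary, 160 of 160 for transplant against active and 150 of 150 for transplant against sedentary. The genes were chosen for this direction and the alternatives reuse the same libraries, so these counts are a description and no support. With the other column numbered 6, the median of the granule genes moved to 1.60 for active against sedentary and to 1.05 for transplant against active. In that transplant against active fit the ratio of group means was below 1 for several of them, down to 0.341 for Ltf. Counts of genes called over the whole tables moved more, and the cause was not tested. For active against sedentary HSC, limma's 0 became 1 with a pseudocount of 0.1 and 274 with DESeq2. For transplant against active HSC, the 7 became 1 with edgeR, 1134 with DESeq2, 0 in replicates 1 and 2 alone, 1 with the other column numbered 6, and 0 to 79 when single libraries were left out, the highest without active replicate 1. For transplant against sedentary HSC, the 1553 became 2566 with edgeR, 3167 with DESeq2 and 236 to 1674 without single libraries, of which leaving out sedentary replicates 1 and 2 or transplant replicates 1 and 2 gave the low values.  In week 12 tumours the 99 became 208 with DESeq2 and 9 to 71 without single libraries. In week 18 tumours the 0 became 5 with a pseudocount of 0.1, 52 with DESeq2 and 0 to 5 without single libraries.

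With the replicate number as a block, transplant against active gave 0 calls, the week 12 tumours 0, and transplant against sedentary 95, where 6 of 10 granule genes passed instead of 10, against 0.585% of all genes called higher; the block changed no other count of calls. Only transplant against active HSC and week 18 tumours passed the check of replicate numbers, and the labels name no pairs.

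Some small tumour differences changed sign, none of them past a threshold. At week 12, S100a8 became -0.029 with edgeR and -0.047 with DESeq2. Leaving out single libraries gave -0.42 to 0.45 for S100a8, -0.16 to 1.28 for Mmp8 (below 0 without sedentary replicate 1 or 2, at -0.078 each, or active replicate 2) and -1.28 to 0.044 for Cd177 (above 0 without active replicate 3). At week 18 it gave -0.0035 to 0.77 for Lcn2 (below 0 without sedentary replicate 1), -1.29 to 0.50 for Ltf (0.019, 0.50 and 0.12 without sedentary replicate 2, sedentary replicate 3 and active replicate 1) and -0.078 to 2.41 for Chil3 (below 0 without active replicate 2). TMM scaling changed the direction of no granule gene.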

Other observations

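Outside the granule genes, 10 genes were most like their mean over the 10 HSC columns, among 10784 genes compared by Pearson r of log2 levels. They were Tcta (r = 0.990), Il1f9, Cd300lf, Tbc1d8, Chil1, Wfdc21, Fam214b, Ctns, Pfkfb4 and Mtm1 (r = 0.981). Over the 8 columns without those numbered 6, Tcta had an r of 0.992 and Mtm1 one of 0.972. Such values were common: 684 genes (6.34%) had an r above 0.9, and all points share the same columns and depth. Cd300lf, an inhibitory myeloid receptor, measured 55.8 ± 12.9 in sedentary and 427 ± 58.7 in transplant HSC (SD, n = 3 each). Chil1, a chitinase-like relative of Chil3, measured 3.73 ± 2.91 in sedentary and 101 ± 33.2 in transplant HSC, and 561 in the sedentary-table column 6. Wfdc21, a whey acidic protein domain gene, measured 36.5 ± 15.8 in sedentary and 606 ± 175 in transplant HSC. Tcta followed the same columns over a narrow range, from 88.3 to 97.0 in sedentary HSC to 174 to 179 in transplant HSC. None of the 10 belonged to a list used in the report.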
